A study of Mus musculus with 22 samples.

Results

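Fpr1, Fpr2, C5ar1, Ltb4r1 and Ptafr, 5 of the 23091 genes named in the tables, are receptors through which neutrophils sense bacterial peptides, complement and lipid mediators. They were taken by name from all 22 tables of single cells sorted from mouse ileum, of which 21 list Ltb4r1. Their levels were compared between transplanted mice with and without acute graft-versus-host disease (aGVHD), over all cells of at least 500 transcripts and over cells rich in the neutrophil transcripts S100a8 and S100a9. Levels are in CPM, the gene's transcripts scaled to the library's effective total, and where raw CPM is written the plain total of all transcripts was used instead. Because the method counts transcript 3′ ends, CPM is not corrected for gene length and is compared here only within a gene.

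All 5 are G protein-coupled receptors that can signal through inhibitory G proteins and guide neutrophils toward a source of attractant. FPR1 binds the formylated peptides of bacteria and mitochondria with high affinity, and FPR2 also binds serum amyloid A and annexin A1. C5AR1 binds the complement fragment C5a, LTB4R1 is the high-affinity receptor of leukotriene B4, and PTAFR binds platelet-activating factor. In the intestine such receptors are known for bringing neutrophils to sites where bacteria cross a damaged epithelium.

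Both groups were lethally irradiated BALB/c mice, 7 to 9 weeks old, that received 2 doses of 5 Gy at least 4 h apart and then 5000000 bone marrow cells of C57BL/6 donors. Donors were female and 7 to 10 weeks old. The aGVHD group (12 libraries) was also given 400000 donor T cells, and the control group (10 libraries) none. Cells sorted as CD45+H2kb+CD11b+Ly6G+, which selects donor neutrophils, were sequenced on day 21 by CEL-Seq2, a plate method with molecular identifiers. Nothing in the labels ties a library to a mouse or says how many mice were pooled, so the p-values speak of library-to-library spread alone, and that spread may be technical. Sample titles either carry a date-like number (the dated set, 6 control libraries and 8 of aGVHD) or are marked G1 (4 and 4), and this title set was a term in each fit between groups.

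Library totals ran from 45607 to 360054 transcripts. Between 11 and 60 cells were kept per control library (358 in all) and between 74 and 95 per aGVHD library (1025 in all). Cells with at least 5 S100a8 and S100a9 transcripts and at most 2 of C1qa, C1qb and C1qc are called gated cells below. Their mean share of kept cells was 32.8% ± 10.6 over control libraries (SD, n = 10). Over aGVHD libraries it was 54.7% ± 19.9 (SD, n = 12). Cells with at least 3 C1q transcripts, a macrophage sign, numbered 70, against 688 gated cells, and the rest of the 1383 kept cells fell in neither class. Over all kept cells the summed level of 17 neutrophil markers ran from 3570 to 11913 raw CPM in control and from 5422 to 61534 in aGVHD libraries. Of these, 4 of 13 tested were called higher in aGVHD (median log2 fold change 0.76). Summed dendritic cell markers (9 genes) ran from 128 to 989 and from 87.4 to 242 raw CPM, and 3 of 4 tested were called lower (median -1.32). Macrophage/monocyte markers (15) ran from 204 to 7227 and from 533 to 4815, with 0 of 10 tested called. Epithelial markers (9) had medians of 949 and 177 raw CPM, with 1 of 7 tested called lower in aGVHD, and B or plasma cell markers (8) had medians of 475 and 43.3, with 0 of 1 called. The part of these markers in the results over all kept cells was not tested.

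Fpr1 and Fpr2 lie head to head on mouse chromosome 17, with 3884 bases between their starts. In GENCODE M21 (GRCm38), Fpr1 (ENSMUSG00000045551.7) spans 17876471 to 17883940 on the minus strand and Fpr2 (ENSMUSG00000052270.7) spans 17887824 to 17893952 on the plus strand. Fpr2 shares sequence on its own strand with an annotated gene, Fpr3, which no table lists, so its counts could hold transcripts of both. Ltb4r1 (ENSMUSG00000046908.5) lies on chromosome 14 at 55765962 to 55768494 on the plus strand, starting 824 bases after the end of Ltb4r2. C5ar1 (ENSMUSG00000049130.6) is on chromosome 7 at 16246743 to 16259540, minus strand, and Ptafr (ENSMUSG00000056529.7) on chromosome 4 at 132564067 to 132582683, plus strand. The sources used here do not give the tables' genome build, and these positions describe the annotation only. The 250 bases before the start are shown for the neighbouring pair Fpr1 and Fpr2, which were both higher in aGVHD over all kept cells, and for Ltb4r1, which was near 0 in control gated cells. They are from RefSeq (GRCm38.p6), and are read 5′ to 3′ on the gene's strand, with TATAAA and GAGGAA (or TTCCTC, its other strand) in capitals.
Fpr1, chr17:17883940-17884189, minus strand: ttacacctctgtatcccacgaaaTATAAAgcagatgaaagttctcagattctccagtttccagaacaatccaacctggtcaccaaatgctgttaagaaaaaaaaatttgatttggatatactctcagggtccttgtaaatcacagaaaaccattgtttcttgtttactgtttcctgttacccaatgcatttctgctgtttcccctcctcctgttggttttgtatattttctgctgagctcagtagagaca
Fpr2, chr17:17887574-17887823, plus strand: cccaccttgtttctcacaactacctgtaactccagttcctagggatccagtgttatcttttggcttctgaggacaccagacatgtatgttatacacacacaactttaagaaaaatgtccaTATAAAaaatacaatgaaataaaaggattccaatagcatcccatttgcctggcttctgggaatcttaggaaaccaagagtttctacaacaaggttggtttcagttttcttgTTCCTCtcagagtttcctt
Ltb4r1, chr14:55765712-55765961, plus strand: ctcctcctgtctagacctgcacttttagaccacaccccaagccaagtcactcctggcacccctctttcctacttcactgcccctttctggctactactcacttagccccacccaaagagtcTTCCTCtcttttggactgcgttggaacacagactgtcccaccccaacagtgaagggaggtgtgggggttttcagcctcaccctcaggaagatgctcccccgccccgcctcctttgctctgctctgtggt
Fpr1 held TATAAA 227 bases and Fpr2 130 bases before the start, a motif found on either strand in 12.4% of 32851 mouse promoters of this length. GAGGAA, a core that PU.1 can bind, was read on the other strand 19 bases before the start of Fpr2 and 129 bases before that of Ltb4r1, and is in 23.3% of these promoters. The C/EBP core TTGCNNAA, in 9.56% of them, was in none of the 3 windows printed. These matches describe letters and say nothing on binding.

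Over all kept cells, both formyl peptide receptors and the C5a receptor were higher in aGVHD than in control libraries, and the platelet-activating factor receptor did not pass the test. Per library, Fpr1 was between 0 and 57.8 CPM (median 32.9) in control and between 45.6 and 313 CPM (median 70.9) in aGVHD. The groups touched only at their edges, with 10 of 12 aGVHD libraries above the highest control library. The means were 32.7 ± 16.6 CPM (SD, n = 10) and 117 ± 88.0 CPM (SD, n = 12), or 1.44 on the log2 scale (SE 0.39, limma adjusted p = 0.0316). The highest Fpr1 levels were in aGVHD replicates 7 and 6 (313 and 267 CPM), and replicate 7 alone gave 32.3% of the 437 aGVHD transcripts of the gene. Control libraries held at most 10 Fpr1 transcripts (replicate 7), and aGVHD libraries 6 to 141. The low-count filter asks for 10 in a library of median size, so Fpr1 entered the fit mainly through aGVHD libraries.

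Fpr2 ran from 45.2 to 234 CPM (median 124) in control and from 205 to 657 CPM (median 357) in aGVHD libraries. Only the lowest aGVHD library, replicate 12, fell within the control range. The means were 136 ± 79.4 CPM (SD, n = 10) and 375 ± 122 CPM (SD, n = 12), and the log2 fold change was 1.32 (SE 0.25, limma adjusted p = 0.0069). C5ar1 ran from 69.2 to 197 CPM (median 111) in control and from 127 to 339 CPM (median 210.3) in aGVHD. Here the groups overlapped, with 7 of 12 aGVHD libraries above the control maximum and all 12 above the control mean. The means were 122 ± 43.5 CPM (SD, n = 10) and 204 ± 57.2 CPM (SD, n = 12), or 0.72 on the log2 scale (SE 0.20, limma adjusted p = 0.0423).

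Ptafr, the receptor of platelet-activating factor, ran from 135 to 382 CPM (median 279) in control and from 217 to 484 CPM (median 337) in aGVHD libraries. Its ranges overlapped widely, with 3 of 12 aGVHD libraries above the control maximum, and the log2 fold change of 0.30 (SE 0.18) did not pass (limma adjusted p = 0.359). Ltb4r1 was too sparse for the fit across genes, with 17 control and 145 aGVHD transcripts. It ran from 0 to 45.2 CPM (median 9.97) in control and from 14.1 to 86.6 CPM (median 30.3) in aGVHD libraries. The control maximum, in replicate 5, rested on 1 transcript, and 4 aGVHD libraries exceeded it. The means were 14.05 ± 15.7 CPM (SD, n = 10) and 40.6 ± 24.5 CPM (SD, n = 12), a difference of 26.6 CPM (exact two-sided permutation within title sets, p = 0.00869, also after adjustment over the populations tested). Among dated libraries alone the exact permutation p was 0.0433, and among G1 libraries alone it was 0.114, with 70 arrangements of the labels.

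**Figure D1:**
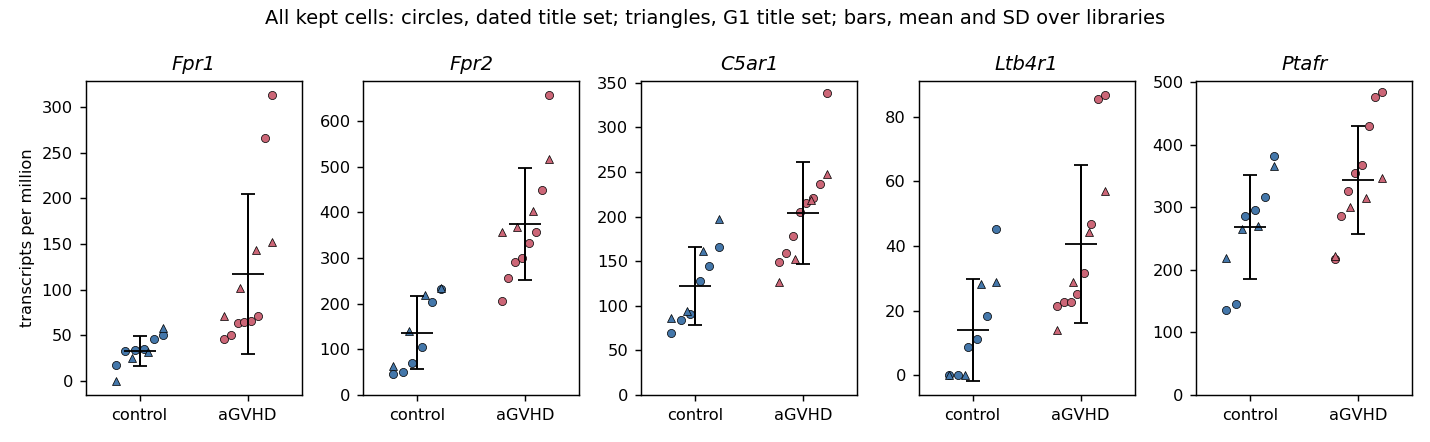
Level in CPM (y axis, linear, a separate scale per gene) of the 5 receptors in each library over all kept cells, by group (x axis). Circles are dated and triangles G1 libraries, and bars give mean and SD. For Fpr2 11 of 12 aGVHD libraries lie above all control libraries, and for Ptafr 3 of 12 do.

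In this comparison 3 of the 4 members tested were called higher, and 2.56% of the 2382 genes tested were (61 higher and 63 lower in aGVHD). In control libraries the rates of Fpr1 and Fpr2 were lower in kept cells (33.5 and 163 raw CPM) than in barcodes that appeared to have received no cell (113 and 200.5). In counts, the 358 kept cells held 48 and 233 transcripts, and those barcodes, 96 per library, held 9 and 16. A rate in barcodes of few transcripts does not give the background in a cell, and how much of these control levels is background was not tested. In aGVHD libraries the kept cells held 129.7 and 383 raw CPM and the barcodes without cells 81.1 and 189. The calls of Fpr1 and C5ar1 were close to the threshold (limma adjusted p = 0.0316 and 0.0423), and that of Fpr2 was further from it (limma adjusted p = 0.0069). None of the 3 held when the deepest cells and those rich in Kcnq1ot1, a nuclear RNA, were left out, 34 control and 62 aGVHD cells (Fpr1 1.21, Fpr2 0.94, C5ar1 0.35, limma adjusted p = 0.165, 0.0668 and 0.307). None held over the 18 libraries of at least 20 cells either (1.46, 1.12 and 0.72, limma adjusted p = 0.148, 0.0611 and 0.148), or with plain library totals as the scale (1.30, 1.46 and 0.73, limma adjusted p = 0.277, 0.134 and 0.383). Without 1 library, the call ended for Fpr1 in 4 of 22 cases (control replicates 1, 3, 4 and 8, largest limma adjusted p = 0.0856), for C5ar1 in 12 (largest 0.109) and for Fpr2 in 0 (largest 0.0207). The 12 libraries for C5ar1 were control replicates 1, 2, 4, 6, 8 and 10 and aGVHD replicates 3, 4, 6, 8, 9 and 11. Scaled before the low-count filter rather than after it, 86 genes were higher and 3 lower and the median of all genes moved to 0.21. The members were then at 1.59 (Fpr1), 1.64 (Fpr2), 0.94 (C5ar1) and 0.59 (Ptafr), with the same 3 called.

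Within the dated set the log2 fold changes were 1.43 for Fpr2, 0.82 for C5ar1 and 0.43 for Ptafr, and within the G1 set 1.08, 0.53 and 0.06. Fpr1 was 1.82 in the G1 set and below the filter in the dated set. No member passed within a set (smallest limma adjusted p = 0.0538, Fpr2 in the dated set). The difference between sets was tested for the 4 members and did not pass (smallest limma adjusted p = 0.945). In sums over cells, fewer cells of a type and fewer transcripts per cell cannot be told apart. Gated cells held 83.5% of the Fpr1, 76.6% of the Fpr2, 78.2% of the C5ar1, 71.7% of the Ptafr and 82.1% of the Ltb4r1 transcripts of aGVHD cells, where they held 56.0% of all transcripts. In control cells they held 56.3%, 49.8%, 59.5%, 52.5% and 23.5% in the same order, where they held 34.4% of all transcripts.

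Among gated cells, Ltb4r1, the high-affinity leukotriene B4 receptor, was higher in aGVHD by a permutation test of this gene alone, and the other members did not pass the fit across genes. It was at 0 CPM in 4 of the 7 control libraries with at least 10 gated cells and at 12.4, 13.2 and 15.5 CPM in the other three (replicates 3, 2 and 4). In the 12 aGVHD libraries it ran from 17.7 to 135 CPM (median 54.0). The groups did not overlap on this scale. The means were 5.87 ± 7.37 CPM (SD, n = 7) and 61.6 ± 37.2 CPM (SD, n = 12), a difference of 55.7 CPM (exact two-sided permutation within title sets, p = 0.00161, adjusted p = 0.00321 over the populations tested). In counts these were 3 transcripts of 468933 in control and 119 of 1886324 in aGVHD, a ratio of rates of 9.86 (exact 95% interval 3.29 to 48.5, counting error only). At the aGVHD rate, 29.6 transcripts would have been counted in the control cells. A single control library says little, since 3 transcripts correspond to 35.6 to 61.9 raw CPM there.

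Among dated libraries Ltb4r1 differed by 53.6 CPM (exact permutation p = 0.0124) and among G1 libraries by 61.2 CPM, where 2 control and 4 aGVHD libraries allow no p under 0.0667 (exact permutation p = 0.133). Without any 1 library the exact permutation p was between 0.000589 and 0.00485. In raw CPM, 11 of 12 aGVHD libraries were above the control maximum. On that scale the difference was 48.7 with the deep and Kcnq1ot1-rich cells left out (exact permutation p = 0.00498) and 41.1 in libraries of at least 20 gated cells, of which 2 were control (exact permutation p = 0.0889). The barcodes of each plate that appeared to have received no cell held 0 Ltb4r1 transcripts of 79806 in control libraries, which allows up to 37.6 raw CPM. In aGVHD libraries they held 1 of 148001, or 6.76 raw CPM, against 63.1 raw CPM in gated cells.

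Fpr1 in gated cells ran from 26.5 to 121 CPM (median 73.7) in 7 control and from 75.8 to 516 CPM (median 149.6) in 12 aGVHD libraries. The ranges overlapped, with 7 of 12 aGVHD libraries above the control maximum. The means were 67.0 ± 33.4 CPM (SD, n = 7) and 185 ± 132 CPM (SD, n = 12), and the log2 fold change of 1.28 (SE 0.62) did not pass (limma adjusted p = 0.469). Control gated cells held 54.8 raw CPM of Fpr1 (27 transcripts, in 20 of 124 cells). The barcodes without cells of control libraries held 113 raw CPM (9 transcripts, 96 barcodes per library). How much of the Fpr1 in control gated cells is background was not tested. In aGVHD libraries the gated level was 193 and the level in barcodes without cells 81.1 raw CPM.

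Fpr2 in gated cells ran from 72.6 to 475 CPM (median 296) in control and from 354 to 1020.0 CPM (median 525) in aGVHD. All 12 aGVHD libraries were above the control mean and 8 above the control maximum. The means were 269 ± 149.8 CPM (SD, n = 7) and 580.3 ± 203 CPM (SD, n = 12), or 0.999 on the log2 scale (SE 0.27). This did not pass over all genes (limma adjusted p = 0.350), and the limma p before adjustment was 0.00125. Fpr2 passed narrowly with limma's trend method (1.17, limma adjusted p = 0.04999). Fpr2 was the member with the most transcripts in barcodes without cells, at 200.5 raw CPM in control and 189 in aGVHD libraries, against 236 and 524 in gated cells.

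C5ar1 in gated cells ran from 141 to 333 CPM (median 226) in control and from 195 to 422 CPM (median 311) in aGVHD, with 4 of 12 aGVHD libraries above the control maximum. Its log2 fold change of 0.40 (SE 0.21) did not pass (limma adjusted p = 0.493). Ptafr in gated cells was at 494 ± 96.4 CPM (SD, n = 7) in control and 489.9 ± 116 CPM (SD, n = 12) in aGVHD libraries. It ran from 368 to 655 and from 256 to 611 CPM, and no aGVHD library exceeded the control maximum. Its log2 fold change was -0.05 (SE 0.19, limma adjusted p = 0.941), and it was 0.32 when scaled before the filter, where the median of all genes was 0.35.

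**Figure D2:**
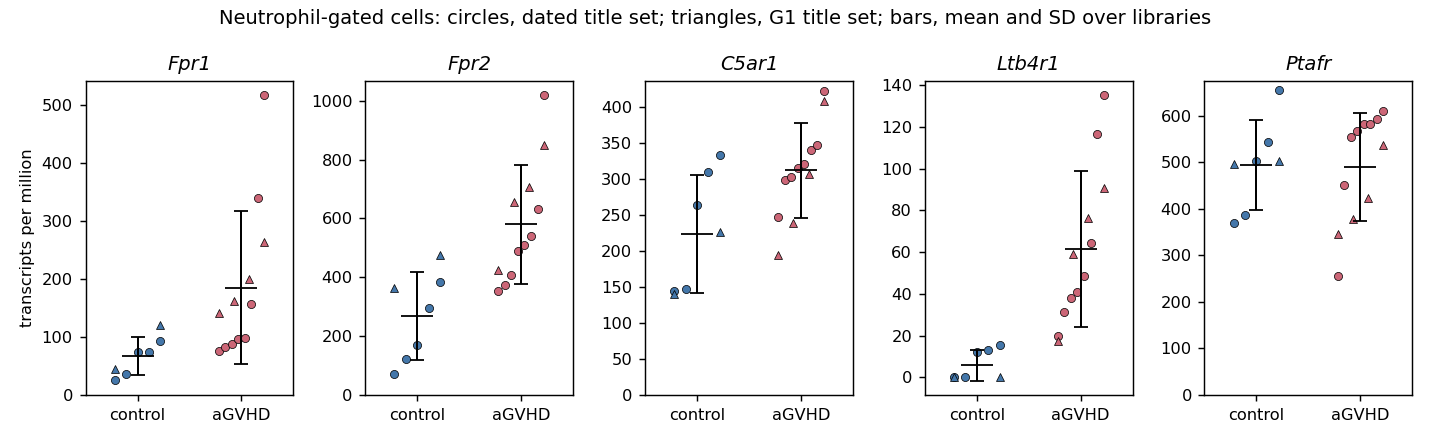
Level in CPM (y axis, linear, a separate scale per gene) of the 5 receptors in gated cells of 7 control and 12 aGVHD libraries (x axis). Circles are dated and triangles G1 libraries, and bars give mean and SD. The Ltb4r1 values of the groups do not overlap, and the Ptafr means, 494 and 489.9, are nearly level.

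Of the 1200 genes tested in gated cells, 0% were called by limma (0 genes, with 128 at an unadjusted p under 0.05), and so 0 of the 4 members tested. Limma's trend method called 7 genes. Summed epithelial markers (9 genes) in gated cells ran from 0 to 40768 raw CPM in control (median 1852) and from 0 to 6809 in aGVHD libraries (median 187). B or plasma cell markers (8) ran from 14.6 to 90333 (median 402) and from 0 to 65684 (median 48.6). Macrophage/monocyte markers ran from 283 to 1438 and from 390.4 to 1635, with C1qa and Mrc1 at 0 in control. The 17 neutrophil markers ran from 9022 to 22539 and from 13312 to 69989, with Ngp at 0 in control. The neutrophil list holds S100a8 and S100a9 and the macrophage/monocyte list the C1q genes. As these genes cut the gate, both sums are partly set by it. The part of all these markers in the results for the receptors was not tested. Dendritic cell markers stayed under 472 raw CPM, and eosinophil, T or NK cell and mast cell markers under 120 raw CPM, in every library.

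**Figure D3:**
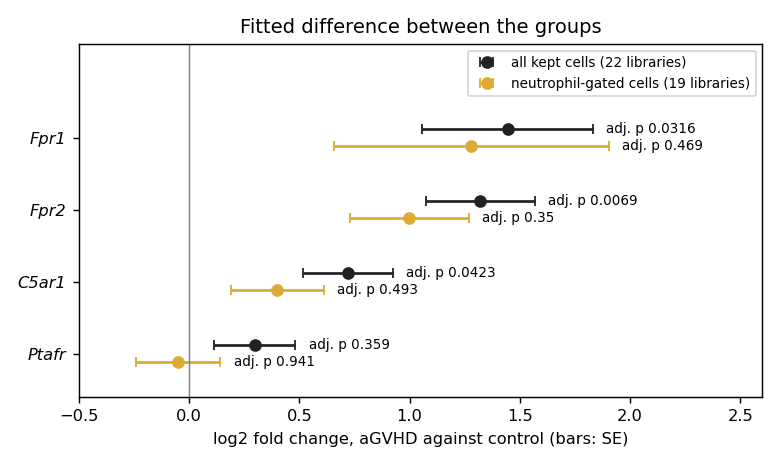
Log2 fold change of aGVHD against control (x axis) for the 4 receptors that passed the low-count filter (y axis), with SE as bars and limma's adjusted p beside each point. Black points are all kept cells, where Fpr1, Fpr2 and C5ar1 passed, and yellow points gated cells, where none passed.

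The share of gated cells with a transcript was compared after thinning every cell to 500 transcripts. For Ltb4r1 it was 0% in all 7 control libraries and averaged 2.97% ± 2.69 (SD, n = 12) over aGVHD libraries, where 9 of 12 were above 0 (exact permutation p = 0.00818, adjusted p = 0.0409 over the 5 receptors). Pooled over all libraries, 0 of 124 control cells had a transcript, which at this depth allows a share of up to 2.42% (exact 95% interval to 2.93%). These 124 include cells of control libraries with fewer than 5 gated cells, which the test left out. In aGVHD 19 of 564 cells had a transcript (3.37%, exact 95% interval 2.04% to 5.21%). Unthinned, 4 of the 124 control cells (3.23%) and 79 of the 564 aGVHD cells (14.01%) had a transcript. The adjusted p was 0.106 after thinning to 1000 transcripts, which leaves out 10 control and 36 aGVHD gated cells (1.28% and 4.90%), and 0.0140 without thinning (2.12% and 12.4%, exact permutation tests).

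For Fpr1 the control mean was 3.002% ± 4.09 (SD, n = 7) and the aGVHD mean 7.56% ± 6.79 (SD, n = 12). For Fpr2 they were 15.8% ± 11.1 (SD, n = 7) and 23.6% ± 8.59 (SD, n = 12). Neither passed (exact permutation adjusted p = 0.239 for each). For C5ar1 the means were 17.2% and 18.3%, and for Ptafr 18.7% and 19.2% (exact permutation adjusted p = 0.835 for each). Ptafr's difference was -9.47 points without thinning (70.3% and 60.8%). At 500 transcripts, at least 1 of the 5 receptors was seen in 44.4% of control and 53.4% of aGVHD gated cells, and 2 or more in 8.87% and 15.1%.

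No class here is known to lack these receptors. The pooled thinned shares in the 27 control and 43 aGVHD C1q-positive cells were 3.70% and 13.95% for Fpr1, 11.1% and 11.6% for Fpr2 and 7.41% and 13.95% for Ptafr. They were 11.1% and 4.65% for C5ar1 and 0% and 2.33% for Ltb4r1. In cells of neither class they were 1.93% and 1.44% (Fpr1), 7.25% and 8.13% (Fpr2), 4.83% and 6.46% (C5ar1), 0.966% and 1.44% (Ltb4r1) and 10.6% and 12.4% (Ptafr). Before thinning the median depth was 2777.5 and 2453.5 transcripts in gated cells, 8752 and 7585 in C1q-positive cells and 1903 and 1695.5 in the others, control first. For Fpr1 the pooled share of gated cells was 2.42% in control and 8.69% in aGVHD, and the few C1q-positive cells (1 of 27 and 6 of 43 with a transcript) give intervals too wide to rank the classes.

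Set against C1q-positive cells of the same library, gated cells had more of all 4 receptors tested in CPM. C1q-positive cells were deeper, and pooled unthinned shares of cells with a transcript did not all follow. In aGVHD they were higher in C1q-positive than in gated cells: Fpr1 39.5% and 28.9%, Fpr2 72.1% and 62.1%, C5ar1 67.4% and 50.7%, Ptafr 67.4% and 61.0%. In control they were lower: 11.1% and 16.1%, 33.3% and 45.2%, 48.1% and 48.4%, 63.0% and 66.9%. Fpr2 was at 629 ± 279 CPM in gated and 207 ± 170.3 CPM in C1q-positive cells (SD, n = 12 libraries), higher in gated cells in 11 of 12, by 1.67 on the log2 scale (SE 0.27, limma adjusted p = 3.26e-05). Ptafr was at 541 ± 96.4 and 235 ± 116 CPM, higher in 12 of 12 with no overlap (1.19, SE 0.27, limma adjusted p = 0.00079). C5ar1 was at 307 ± 95.7 and 130.3 ± 78.8 CPM, higher in 11 of 12 (1.25, SE 0.28, limma adjusted p = 0.000881). Fpr1 was at 174 ± 157 and 57.6 ± 56.9 CPM, higher in 10 of 12 (1.44, SE 0.36, limma adjusted p = 0.00248). Ltb4r1, below the filter with 76 and 15 transcripts, was at 47.8 ± 49.6 and 18.7 ± 25.6 CPM and higher in 8 of 12.

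So 4 of 4 members tested were called higher, where 26.4% of 1624 genes were (428 higher and 340 lower). Each library gave only 3 to 7 C1q-positive cells. With plain library totals the split was 142 higher and 561 lower and the median of all genes moved from 0.12 to -0.45. The members were then at 0.80 (Fpr1), 1.05 (Fpr2), 0.65 (C5ar1) and 0.62 (Ptafr), and only Fpr2 passed (limma adjusted p = 0.0093). Scaled before the filter, 597 genes were higher and 214 lower, and all 4 passed. In the 8 aGVHD libraries alone all 4 passed (1.098 to 1.54). In the 4 control libraries alone Fpr2 (2.03) and Ptafr (1.36) were above the filter, and neither passed (limma adjusted p = 0.0652 and 0.177).

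**Figure D4:**
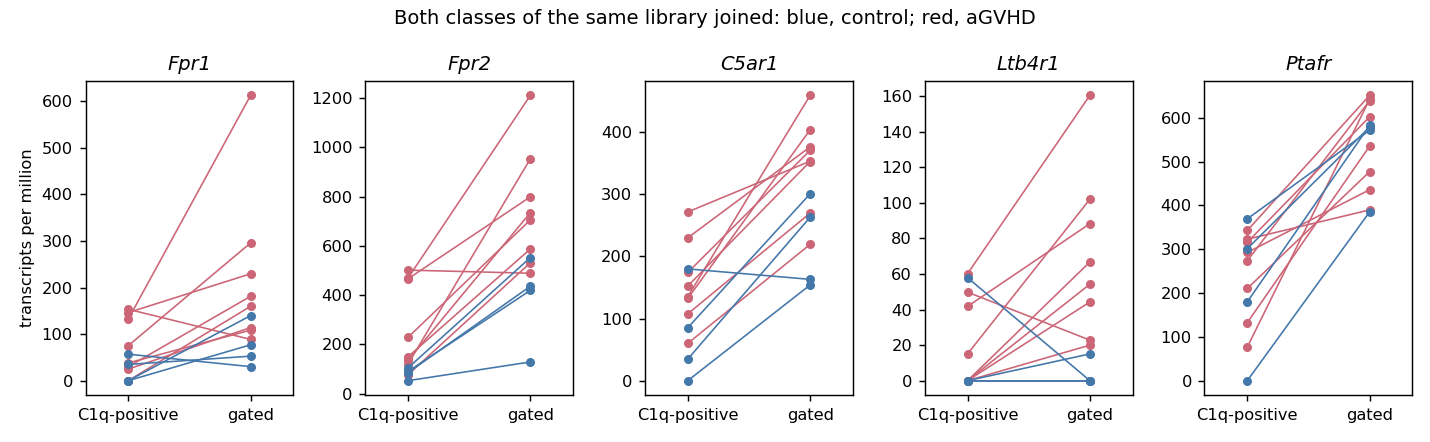
Level in CPM (y axis, linear, a separate scale per gene) in C1q-positive and gated cells (x axis), with lines joining both classes of 1 library. Blue lines are the 4 control and red lines the 8 aGVHD libraries. Ptafr rises along every line, and Ltb4r1 along 8 of 12.

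Lipocalin-2 (Lcn2), the granule protein in the study's title, was used to divide the gated cells of 7 aGVHD libraries at the thinned depth. These held 118 cells with and 272 without an Lcn2 transcript. Fpr1 was at 636 ± 524 CPM in Lcn2-positive and 307 ± 310 CPM in Lcn2-negative cells (SD, n = 7 libraries), higher in 5 of 7 (log2 fold change 1.20, SE 0.49, limma adjusted p = 0.0825). This rested on 32 and 24 thinned Fpr1 transcripts. Fpr1 passed in 3 of 11 other settings. These were libraries of at least 3 cells of each kind (1.32, limma adjusted p = 0.0128), library totals (1.57, limma adjusted p = 0.0244) and aGVHD replicate 2 dropped (1.54, limma adjusted p = 0.0375). Without 1 library its log2 fold change ran from 0.81 to 1.63 (largest limma adjusted p = 0.320). Fpr2 (0.35), C5ar1 (-0.03) and Ptafr (-0.25) did not pass. Here 0 of 4 members tested were called, and 15% of 360 genes were (29 higher and 25 lower). With library totals 58 were higher and 3 lower, and scaled before the filter 15 and 59. Of the genes of 3 pathway lists, 1 of 10 tested by Lcn2 status passed, Alox5ap of leukotriene synthesis (1.01, limma adjusted p = 0.0266). It did not pass without aGVHD replicate 7 (limma adjusted p = 0.131) or scaled before the filter (limma adjusted p = 0.107). The smallest p-values of the other lists belonged to Cxcr4 (-0.59) and Cxcr2 (0.26) and to Rac1 (1.11) and Gnai2 (0.20). Thinned sums were small: Ltb4r1 had 4 and 12 transcripts and was not tested.

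Other genes of the same pathway were read from 3 lists, over all kept cells first. Of 16 other chemoattractant receptors 10 were in the tables and 3 tested, and 1 was higher: Cxcr2, the receptor of CXC chemokines and also a neutrophil marker (0.96, limma adjusted p = 0.0474). Of 20 ligands and lipid mediator enzymes 10 were tested, and 1 was higher: Pla2g7, which degrades platelet-activating factor (0.97, limma adjusted p = 0.0246). Of 29 signalling genes 19 were tested, and 1 was lower: Rgs1, which limits G protein signalling (-1.25, limma adjusted p = 0.0474). The median log2 fold changes of the lists were 0.45, 0.70 and 0.19, against -0.01 over all genes. Leaving out 1 library ended the Pla2g7 call in 1 of 22 cases (control replicate 1, limma adjusted p = 0.0546). It ended the Cxcr2 call in 16 cases, all but control replicates 5, 7 and 9 and aGVHD replicates 10, 11 and 12 (largest limma adjusted p = 0.0925). For Rgs1 it did so in 18, all but control replicate 1 and aGVHD replicates 3, 5 and 10 (largest limma adjusted p = 0.0969). Cxcr2 and Pla2g7 did not pass without the deep and Kcnq1ot1-rich cells (limma adjusted p = 0.239 and 0.122), and Rgs1 did (limma adjusted p = 0.0475). With library totals as the scale none of the 3 passed (limma adjusted p = 0.176, 0.283 and 0.231). Scaled before the filter, Rgs1 did not pass (limma adjusted p = 0.131).

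In gated cells 0 genes of the 3 lists passed (3, 7 and 12 tested, medians 0.26, 0.43 and 0.08, against -0.03 over all genes). The smallest p-values belonged to Cxcr2 (0.45) and Ccr1 (0.26), to complement C3 (0.57) and Alox5ap (0.60), which presents arachidonate for leukotriene synthesis, and to Rac1 (0.45) and the receptor kinase Adrbk1 (-0.41). Against C1q-positive cells, 3 of 4 other receptors, 2 of 10 ligands and enzymes and 4 of 14 signalling genes tested were higher and 1, 0 and 1 lower, beside the 26.4% of all genes that were higher. In CPM, gated cells had more Cxcr2 (2.36), Ccr1 (1.52) and Cxcr4 (0.83) and less of the C3a receptor C3ar1 (-2.75). They also had more Alox5ap (1.15), Lpcat2 (0.86), Fgr (1.30), Rac2 (1.01), Gngt2 (0.85) and Gnai2 (0.57), and less Rgs1 (-2.23). With library totals as the scale Cxcr2, Ccr1, C3ar1 and Rgs1 still passed and the other seven did not, with Gnai2 at -0.01.

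Within groups and title sets, the levels most like each member over the 22 libraries were ranked among 2158 named genes. Fpr1 was most like Wfdc21 (Pearson r = 0.81, Spearman rho = 0.76), Mmp8 (r = 0.74, rho = 0.57) and Cd38 (r = 0.72, rho = 0.63). Fpr2 was most like Cd52 (r = 0.83, rho = 0.82), Pkm (r = 0.81, rho = 0.80) and Mmp9 (r = 0.78, rho = 0.80). C5ar1 was most like Adipor1 (r = 0.81, rho = 0.81), Cyth1 (r = 0.81, rho = 0.80) and Stk4 (r = 0.80, rho = 0.76). Ptafr was most like B2m (r = 0.82, rho = 0.72), Btg1 (r = 0.81, rho = 0.88) and Entpd1 (r = 0.81, rho = 0.80). No gene was shared between these 4 triplets. They describe the highest of many correlations, over points that share library, depth and number of cells.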

How the data were processed

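Per the labels' protocols the tables come from CEL-Seq2. The programs bcl2fastq (2.17.1.14) and BWA (0.6.2-r126) are named per the submitters' processing notes. For the genome build: not given in the sources used here. The deposited values are the authors' estimated transcript counts for each gene in each barcode, with no depth normalisation. Each of 1419098 values above 0 matched a whole number of identifiers drawn from 4096 (tolerance 1e-06), and they were rounded. A gene absent from a table was taken as 0. The unit was entered as other, because the column check could not read the tables as counts, so the count models planned were not run and limma took their place.

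The members and lists were chosen with earlier results of these data known. Members were named in every comparison. List genes were named where they passed, and otherwise the 2 of smallest p per list; the 3 most alike genes were taken by Pearson r.

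Of 4224 barcodes (192 per library), 1383 with at least 500 transcripts were kept. No doublet caller was run, and no 2 kept cells held identical values. All libraries use the same 192 barcode numbers. In each library the 96 barcodes with the smaller total (1.42% to 16.0% of transcripts, 2 kept cells in all) served as those without cells. Unnamed gene models took 31.5% to 77.8% of a library's transcripts in kept cells (mean 52.1% in control and 51.0% in aGVHD), and they count toward totals.

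Sums per library were tested with limma 3.58.1 (R 4.3.3): voom weights, a low-count filter (10 transcripts in a library of median size, 15 over all libraries), then trimmed-mean scaling (trims 0.3 and 0.05) on the genes kept, and Benjamini-Hochberg adjustment at 0.05. Scaling after the filter was chosen after both orders had been seen; the other order is given beside the results. The Ltb4r1 level tests with their alternatives, the class comparison within each group, and the fit of number-sharing libraries without the number were also chosen after seeing the data. Gated fits used libraries with at least 10 gated cells. Comparisons of classes used the library as a block, with at least 3 cells of each class (5 for Lcn2 status, after thinning). Shares used libraries with at least 5 gated cells. Permutations were exact, two-sided and within title sets (Python 3.11.15, scipy 1.17.1). The fit was tested on simulated data. Intervals and the limit of 3 transcripts for a count of 0 cover counting error only.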

Additional observations from a re-analysis of the deposited data

How the results depend on the processing

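Over all kept cells the members kept their direction in every setting run, and the number called (3) fell to 0 with library totals, the cell quality filter, the dated set alone, the G1 set alone, libraries of at least 20 cells, and the dated libraries with shared title numbers fitted without the number. It ran from 1 to 3 without 1 library. Genes called (124) were 0, 4, 7, 6, 3 and 7 in those settings, 7764 without the low-count filter, and 41 to 179 without 1 library. In gated cells genes called (0) were 29 without the filter, 7 with limma trend, 2 scaled before the filter, 5 in libraries of at least 20 gated cells, 1 and 3 at S100 minimums of 3 and 10, 1 in the libraries with shared numbers, and 0 without 1 library; members called were 1 without the filter (Ltb4r1) and 1 with limma trend (Fpr2). C5ar1 turned to -0.014 at the S100 minimum of 10, and Ptafr (-0.05) to 0.016 with library totals, 0.087 in the dated set, 0.32 scaled before the filter, 0.044 at the S100 minimum of 3, and 0.025 and 0.0086 without control replicates 3 and 8 (range -0.12 to 0.025). Against C1q-positive cells, genes called (768) were 363 with C1q-positive cells of low S100, 412 with at least 5 cells of both classes, 11336 without the filter and 57 in control libraries; members called (4) were 1 with library totals and 0 in control libraries. By Lcn2 status, genes called (54) were 25 to 61 and members called 0 to 1 without 1 library, and members called were 1 with at least 3 cells of both and 1 with library totals. There C5ar1 (-0.03) turned to 0.045 and 0.32 in those settings and ranged from -0.23 to 0.12 without 1 library, with 0.10 and 0.12 without aGVHD replicates 4 and 6. Ptafr (-0.25) turned to 0.16 with library totals and ranged from -0.39 to 0.021 without 1 library. For shares, the Ltb4r1 difference (2.97 points) no longer passed at 1000 transcripts (3.62), with dated libraries only (2.69) and with G1 libraries only (3.52), and the Ptafr difference turned to -9.47 without thinning and -2.81 in the G1 set. The causes were not tested. The planned count-model alternatives were not run.

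When the title number was a replicate block, over the dated libraries that share one, 46 genes were called over all kept cells (39 higher, 7 lower) and 5 in gated cells. Fpr1 was 2.05, Fpr2 1.71, C5ar1 0.88 and Ptafr 0.40 over all kept cells (2 members called), and 2.15, 1.34, 0.31 and -0.07 in gated cells (0 called). Libraries with the same number correlated between -0.10 and 0.26 over all kept cells (mean 0.14, against -0.03 for different numbers). In gated cells they correlated between -0.39 and 0.28 (mean -0.03, against 0.01). Whether the numbers pair libraries cannot be told from these values, and the main fits did not use the numbers. Depth limits Ltb4r1 most: 3 transcripts in all control gated cells of the comparison.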
